A study of Mus musculus with 2 samples.

Results

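The data describe 10 genes for secreted signals in pancreatic islets: the chemokines Ccl3, Ccl4, Ccl5, Cxcl2, Cxcl9, Cxcl10, Cxcl12 and Ccl21a and the cytokines Tnf and Il1b. They were taken by gene symbol from both single-cell count matrices, where they occupied 11 of 31053 gene rows, because the symbol Ccl21a stands for 2 gene identifiers. Islets came from female C57BL/6J mice that were 9 weeks old when the virgin and multipara arms were formed. The multipara mice had gone through 3 consecutive pregnancies, and their islets were taken 3 weeks after the last delivery, while the control islets came from virgin mice of matched age. Both arms were wild-type, and all islets were dissociated to single cells with trypsin. Each arm was 1 library, and the number of mice behind a library is not in the labels. No test between the arms was therefore possible, and differences below have no replicate check. Intervals in brackets are exact 95% intervals that cover counting error only, not the variation between cells or between mice.

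Chemokines are small secreted proteins that guide leukocytes through G protein-coupled receptors. Ccl3 and Ccl5 act on Ccr1, among other receptors, and attract monocytes and lymphocytes, as does Ccl4. Cxcl2 attracts neutrophils through Cxcr2, Cxcl9 and Cxcl10 are interferon-induced ligands of Cxcr3, a receptor of activated T cells, Cxcl12 signals through Cxcr4 and Ackr3, and Ccl21a guides Ccr7-bearing lymphocytes and dendritic cells. Tnf and Il1b are inflammatory cytokines of myeloid cells, and islet macrophages are a known source of both. Beta cells carry the interleukin 1 receptor Il1r1.

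On the mouse genome build GRCm38, Ccl3 lies at chr11:83647844-83649355 on the minus strand, next to Ccl4 at chr11:83662584-83664683 on the plus strand, with Ccl5 at chr11:83525778-83530518 on the minus strand of the same chromosome. Cxcl2 (chr5:90903871-90905938, plus strand), Cxcl9 (chr5:92321347-92328079, minus) and Cxcl10 (chr5:92346638-92348889, minus) share chromosome 5. Tnf lies at chr17:35199381-35202007 (minus), Il1b at chr2:129364570-129371139 (minus), Cxcl12 at chr6:117168535-117181367 (plus) and Ccl21a at chr4:42772860-42773993 (minus). The promoters of 4 of the genes are shown. Cxcl2, Tnf and Il1b were taken because they came mainly from macrophage-like cells, and Cxcl10 because it came from many classes. Each is the 250 bases before the RefSeq gene start on GRCm38.p6, written 5′ to 3′ on the strand of the gene. Capitals mark matches, on either strand, to the NF-kB consensus, to the interferon-stimulated response element (GAAA, any 2 bases, GAAA), or to TATAAA. The windows are chr5:90903649-90903898 for Cxcl2, chr17:35202008-35202257 for Tnf, chr2:129371140-129371389 for Il1b and chr5:92348890-92349139 for Cxcl10.
Cxcl2: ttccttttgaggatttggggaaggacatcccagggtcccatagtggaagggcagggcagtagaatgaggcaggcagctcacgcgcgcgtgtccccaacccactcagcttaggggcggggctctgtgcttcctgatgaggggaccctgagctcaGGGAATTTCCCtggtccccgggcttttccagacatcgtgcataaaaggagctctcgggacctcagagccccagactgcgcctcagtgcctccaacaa
Tnf: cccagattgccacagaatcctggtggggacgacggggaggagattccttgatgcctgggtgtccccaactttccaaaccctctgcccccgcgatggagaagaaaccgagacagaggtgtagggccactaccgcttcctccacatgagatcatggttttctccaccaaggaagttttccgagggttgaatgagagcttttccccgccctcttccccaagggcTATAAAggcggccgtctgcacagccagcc
Il1b: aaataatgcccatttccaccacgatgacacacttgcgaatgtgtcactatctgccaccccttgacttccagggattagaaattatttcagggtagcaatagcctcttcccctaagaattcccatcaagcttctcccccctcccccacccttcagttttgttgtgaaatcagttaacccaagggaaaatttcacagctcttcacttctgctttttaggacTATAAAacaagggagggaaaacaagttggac
Cxcl10: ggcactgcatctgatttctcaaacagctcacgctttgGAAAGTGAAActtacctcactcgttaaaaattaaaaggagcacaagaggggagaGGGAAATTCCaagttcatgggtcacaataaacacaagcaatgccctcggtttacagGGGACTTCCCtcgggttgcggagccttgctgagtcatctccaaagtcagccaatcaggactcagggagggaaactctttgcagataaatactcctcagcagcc
RefSeq windows were found for 8 of the 10 genes, and Ccl4 and Ccl5 had none. The NF-kB consensus matched in 2 of these 8 windows (Cxcl2 and Cxcl10), against 3.9% of 32851 RefSeq windows of the same length. In Cxcl2 the capitals join overlapping matches on both strands. The interferon-stimulated element matched in Cxcl10 alone among the 8 and in 2.98% of all windows. TATAAA matched in Tnf, Il1b and Cxcl9, 3 of 8, against 12.4% of all windows, and the gamma-activated site TTCNNNGAA matched in none of the 8, against 7.02% of all windows. Such matches describe letters in a window and do not show that a factor binds there.

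The virgin library held 5463 barcodes and the multipara library 5075. After the filters of the study on genes, UMIs (unique molecular identifiers, the counted molecules) and mitochondrial share, and removal of called doublets, 4330 virgin and 3330 multipara cells remained, with 83219327 and 69082828 UMIs. A mitochondrial share of 10% or more was found in 17.8% of virgin and 30.5% of multipara barcodes. The libraries shared 7 barcodes, of which 3 were kept. Cells were grouped in 30 clusters without using the 10 genes, and a cluster was named X-like from marker lists that held none of them. In the non-endocrine classes, hormone transcripts took a larger share of each cell in the multipara library, with a median of 2.68% against 1.41% in macrophage-like cells and 4.77% against 1.97% in T cell-like cells. The part of this difference in the results was not tested.

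Islet macrophages were the main source of Ccl3, Ccl4, Cxcl2, Tnf and Il1b in both libraries. Macrophage-like cells numbered 70 of 4330 virgin cells (1.62%, 1.26 to 2.04%) and 117 of 3330 multipara cells (3.51%, 2.91 to 4.20%), and all 12 macrophage markers were detected in each library. From the virgin cells came 88.4% of Ccl3 UMIs, 85.2% of Ccl4, 85.8% of Cxcl2, 89.5% of Tnf and 82.7% of Il1b. In the multipara library the shares were 98.4%, 98.0%, 98.6%, 97.8% and 91.9%. The other 5 genes had other sources. Ccl5 came mainly from a cluster with both T cell and NK markers, Cxcl9 from dendritic-like, fibroblast-like and macrophage-like cells, Cxcl10 from macrophage-like and endocrine cells, and Cxcl12 and Ccl21a in the virgin library from fibroblast-like cells.

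**Figure D1:**
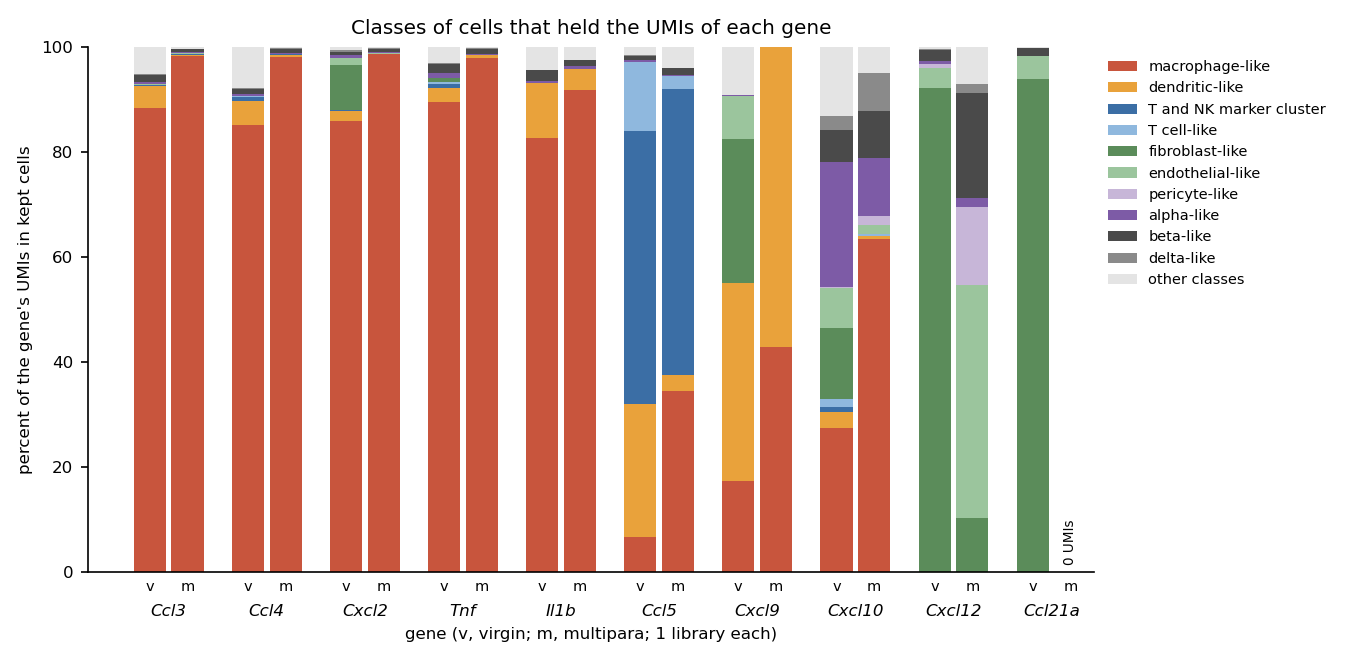
Share of the UMIs of each of the 10 genes (percent, vertical axis) that came from each cell class, in the virgin and the multipara library. For Ccl3, Ccl4, Cxcl2, Tnf and Il1b the macrophage-like class fills 82.7% or more of each bar, while fibroblast-like cells fill 92.2% of the virgin Cxcl12 bar and 10.4% of the multipara one. Ccl21a has no multipara UMIs.

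Summed over all kept cells, the 5 macrophage genes were each over 2-fold higher in the multipara library. Levels are in CPM, where the count of a gene is divided by the total count of the cells summed and brought to one scale. Ccl4 had 4819 virgin UMIs (57.9 CPM) and 9927 multipara UMIs (143.7 CPM), for a log2 ratio of 1.31 (1.26 to 1.36). Ccl3 stood at 22.3 CPM (1852 UMIs) and 48.1 CPM (3320 UMIs), with a log2 ratio of 1.11 (1.03 to 1.19). Cxcl2 stood at 20.7 and 45.8 CPM, Tnf at 7.68 and 17.2 CPM, and Il1b at 13.9 and 32.2 CPM. The log2 ratios of the last 3 were 1.15 (1.06 to 1.23), 1.16 (1.02 to 1.31) and 1.22 (1.11 to 1.32). Against these 5 of 10 genes, 2.05% of the 16619 genes with at least 10 UMIs were 2-fold or more higher.

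Ccl5, Cxcl9, Cxcl12 and Ccl21a were 2-fold or more lower in the multipara library, 4 of 10 against 6.43% of all genes. Ccl5 had 2232 virgin and 783 multipara UMIs (26.8 and 11.3 CPM), a log2 ratio of -1.24 (-1.36 to -1.12). Cxcl12 had 1775 and 115 UMIs (21.3 and 1.66 CPM), -3.68 (-3.96 to -3.41). Cxcl9 had 495 and 14 UMIs (5.95 and 0.203 CPM), -4.88 (-5.76 to -4.12). Ccl21a had 3722 UMIs (44.7 CPM) in virgin cells and 0 in multipara cells. It was 1029.9-fold lower with the 0 set to a floor of 3 counts for the library, and the exact upper limit of its log2 ratio was -9.71. Cxcl10 differed least of the 10, with 1904 virgin UMIs against 1860 in the multipara library (22.9 and 26.9 CPM), at 0.23 (0.14 to 0.33). The median of all genes was -0.13 on the same log2 scale, and TMM scaling moved it by 0.118. The 10 richest cells held from 25.5% (Cxcl10) to 86.2% (Ccl21a) of the virgin UMIs of a gene.

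**Figure D2:**
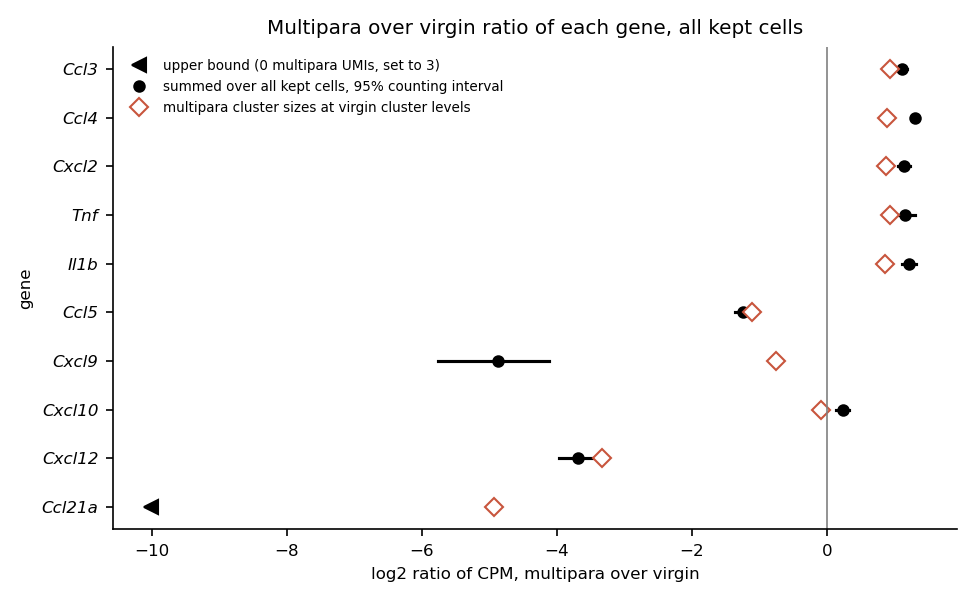
Log2 ratio of multipara over virgin CPM for each of the 10 genes over all kept cells, with exact 95% counting intervals, beside the ratio that the multipara cluster sizes (UMI totals) give at virgin cluster levels. The 5 macrophage genes sit between 1.11 and 1.31, and the Ccl21a value is a bound set by the floor.

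Cluster sizes alone, taken as UMI totals, gave log2 ratios for the 5 macrophage genes below the 1.11 to 1.31 measured over all cells. Every cluster was kept at its virgin level, and only its UMI total was set to that of the multipara library. The log2 ratios were then 0.93 for Ccl3, 0.90 for Ccl4, 0.87 for Cxcl2, 0.94 for Tnf and 0.87 for Il1b. A UMI total depends on both the number and the depth of cells. The same calculation gave -1.11 for Ccl5, -3.32 for Cxcl12 and -0.09 for Cxcl10. It gave -0.75 for Cxcl9, against a measured -4.88, and -4.93 for Ccl21a, against -10.01 with the floor in place of 0. With 1 library per arm, a larger macrophage population and a difference in sampling cannot be told apart.

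Within macrophage-like cells the 5 genes differed little between the libraries, by at most 1.36-fold (Ccl4). Ccl3 was at 4237 CPM (1637 UMIs) in virgin and 4863 CPM (3266 UMIs) in multipara cells, so that their log2 ratio was 0.20 (0.11 to 0.29). Ccl4 was at 10626 and 14486 CPM, with a log2 ratio of 0.45 (0.39 to 0.50). These neighbouring genes both varied widely between cells: Ccl3 had a median of 10.5 UMIs per virgin cell with a highest cell of 111, and a median of 14 per multipara cell with a highest cell of 163. For Ccl4 the medians were 38.5 and 42 UMIs and the highest cells 286 and 389. The median CPM of single cells was lower in the multipara library for Ccl4 (6524 and 5481) and Ccl3 (2191 and 2079) and higher for Cxcl2 (791 and 1720), Tnf (417 and 485) and Il1b (1380 and 1723). Cxcl2, the neutrophil attractant, was at 3823 and 4648 CPM, a log2 ratio of 0.28 (0.19 to 0.37). Tnf was at 1481 and 1732 CPM, 0.23 (0.08 to 0.37), and Il1b at 2469 and 3040 CPM, 0.30 (0.19 to 0.41). Cxcl12 and Ccl21a had no UMI in this class. None of the other 8 genes was 2-fold higher in macrophage-like cells, against 4.85% of 6415 genes, and 1 of 8, Cxcl9, was 2-fold lower, against 11.4%. The all-gene median in this class was -0.18, and TMM scaling raised every ratio in it by 0.25, to 0.69 for Ccl4 and 0.45 for Ccl3.

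Among markers of other types in the macrophage-like cells, those of beta cells were at 12254 and 30655 CPM, and those of neutrophils had 9 virgin and 137 multipara UMIs. Endothelial markers went the other way, with 100 and 6 UMIs, as did T cell markers, with 20 and 5. Their part in the ratios was not tested.

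The share of cells with a UMI was close for Ccl3 and Cxcl2 and larger in the multipara library for Il1b and Tnf. A Ccl3 UMI was found in 53 of 70 virgin (75.7%) and 88 of 117 multipara macrophage-like cells (75.2%), and a Ccl4 UMI in 51 (72.9%) and 91 (77.8%). Il1b was found in 68.6% and 79.5% of the cells, Tnf in 60.0% and 68.4% (42 and 80 cells) and Cxcl2 in 67.1% and 68.4%. Thinned to 1500 UMIs per cell, which left 55 virgin and 94 multipara cells, the shares were 70.9% and 84.0% for Il1b, 76.4% and 77.7% for Ccl3, 81.8% and 86.2% for Ccl4, 72.7% and 75.5% for Cxcl2, and 61.8% and 68.1% for Tnf. The median depth was 5870 UMIs per virgin and 6263 per multipara macrophage-like cell. In beta-like cells, which should lack these transcripts, Ccl3 was found in 1.37% and 1.28% of cells, Ccl4 in 2.36% and 4.63%, and Il1b in 1.26% and 1.54%, at median depths of 29654 and 33122 UMIs. These endocrine shares were read as background.

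The 5 genes were often detected in the same cells, and Il1b followed the others least closely. All 5 were detected in 30 of 70 virgin and 67 of 117 multipara macrophage-like cells, and none of them in 9 and 15. Across cells, the Spearman correlation of CPM between pairs of the 5 genes ran from 0.37 to 0.87 (median 0.56) over the virgin and from 0.32 to 0.91 (median 0.68) over the multipara cells. Pairs with Il1b ran from 0.37 to 0.50 over the virgin and from 0.32 to 0.43 over the multipara cells. The lowest values of the remaining pairs were 0.53 and 0.65. The cells share a library and differ in depth, so these values are a description.

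**Figure D3:**
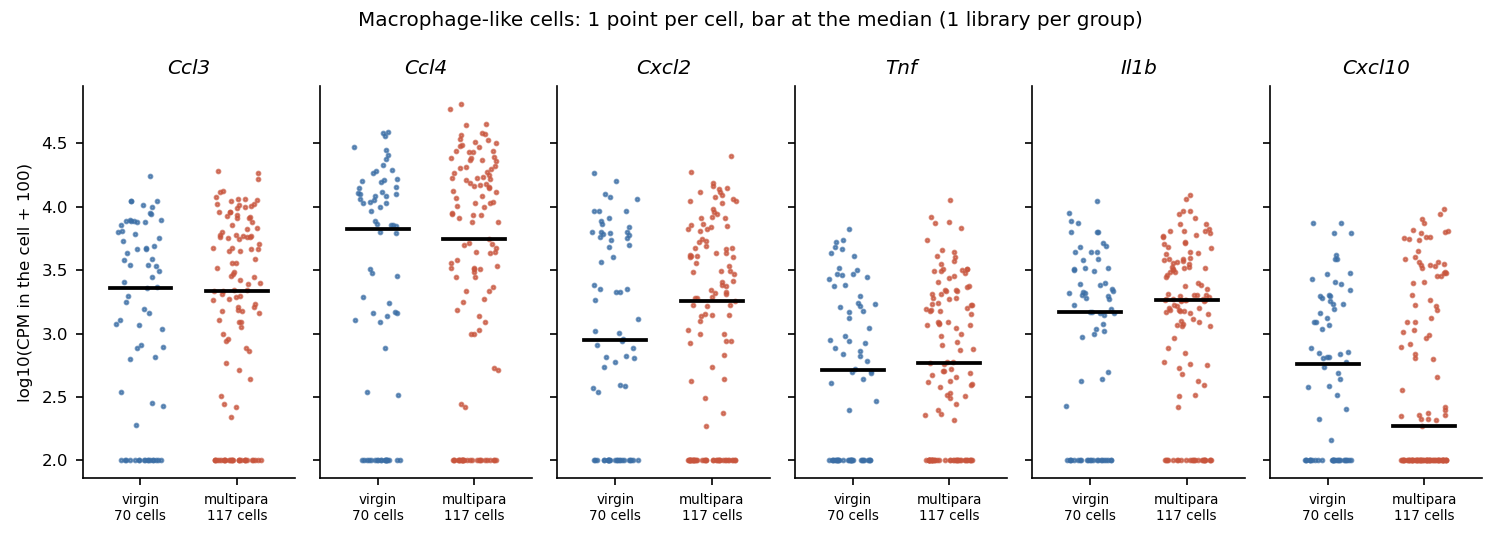
Level of the 5 genes and Cxcl10 in single macrophage-like cells (log10 of CPM + 100), 70 virgin and 117 multipara cells, with the median marked. Both libraries span the same wide range, with cells at 0 in each, and the clouds overlap for every gene.

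A subset of 15 macrophage-like cells, 12 virgin and 3 multipara, bore on these ratios. At a finer clustering they joined a dendritic-like cluster. The 12 virgin cells held 84 of the 86 Cxcl9 UMIs of the virgin macrophage-like class (1074 CPM) and 131 of its 133 UMIs of Ccl8, another CC chemokine, but only 40 UMIs of Ccl4 (511.5 CPM) and 30 of Ccl3. They contained the complement transcript C1qa (381 UMIs), the macrophage growth factor receptor Csf1r (59 UMIs), the macrophage marker Adgre1 (17 UMIs) and H2-Ab1 (323 UMIs). In this order the levels were 4872, 755, 217 and 4131 CPM, against 5514, 545, 295 and 15007 CPM in the 58 virgin cells that stayed. The dendritic cell genes Flt3 and Zbtb46 were at 0 in the 12 virgin cells, and at 2 and 0 UMIs in the 58 that stayed. These 2 genes therefore do not separate the subset, and the other dendritic markers were not read in it. Without the 15 cells, Ccl3 was at 5215 CPM in 58 virgin and 5016 CPM in 114 multipara cells. Its log2 ratio was then -0.06 (-0.14 to 0.03), with Tnf at -0.01 (-0.16 to 0.14), Cxcl2 at 0.04 (-0.06 to 0.13) and Il1b at 0.11 (-0.01 to 0.22). Ccl4 alone among the 5 kept an interval above 0, at 0.18 (0.13 to 0.23). The split was examined after its effect on the ratios had been seen.

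Ccl5, made by cytotoxic and memory lymphocytes, came mainly from the cluster with T cell and NK markers, where 1160 virgin UMIs in 47 cells and 427 multipara UMIs in 14 cells gave 6367 and 9771 CPM, a log2 ratio of 0.62 (0.45 to 0.78). A Ccl5 UMI was found in 30 of 47 (63.8%) and 12 of 14 (85.7%) of these cells, with medians of 16 and 33.5 UMIs. In T cell-like cells, 97 virgin and 28 multipara, the level was 863 and 199 CPM, but 1 virgin cell held 54.9% of the 293 virgin UMIs. Adding both lymphocyte groups gave a log2 ratio of 0.20 (0.05 to 0.36), which turned to -0.27 with each library clustered separately and to -0.086 with marker gates in place of clusters, while the number of lymphocytes was lower in the multipara library: the T and NK marker cluster was 1.09% of virgin and 0.420% of multipara cells, and T cell-like cells were 2.24% and 0.841%. Dendritic-like cells, 29 virgin and 9 multipara, held 567 and 23 Ccl5 UMIs (2414 and 318 CPM), with 90.3% of the virgin UMIs in 5 cells, and with marker gates the direction there turned, to a log2 ratio of 1.31. In the macrophage-like class Ccl5 was level, at 388 and 403.5 CPM, 0.06 (-0.24 to 0.35). The grouping of T cell and NK clusters was chosen after the data had been seen.

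Cxcl9, an interferon gamma-induced ligand of Cxcr3, was found in few cells. A UMI was found in 35 virgin and 5 multipara cells, and the 10 richest cells held 73.7% of the virgin total. The virgin sources were 9 dendritic-like cells (187 UMIs), 10 fibroblast-like cells (135), 8 macrophage-like cells (86), 4 endothelial-like cells (41), 2 cells of an unnamed cluster led by Ighg2c and Spc25 (34), and 1 cell each of a cluster led by Selp and Lrg1 (11) and of the alpha-like class (1). In the multipara library 2 dendritic-like cells held 8 UMIs and 3 macrophage-like cells held 6. The level was lower within both myeloid classes, at 796 and 111 CPM in dendritic-like cells, -2.85 (-4.08 to -1.84), and at 223 and 8.93 CPM in macrophage-like cells, -4.64 (-6.12 to -3.46). The macrophage value rested on the 12 virgin cells described above: without them and their 3 multipara counterparts 2 virgin and 5 multipara UMIs were left.

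Cxcl10, the second Cxcr3 ligand, had the widest spread of sources and differed in direction between them. Macrophage-like cells held 524 virgin and 1181 multipara UMIs (1356 and 1758 CPM), a log2 ratio of 0.37 (0.22 to 0.53), and the share of these cells with a UMI was 62.9% and 50.4%. Alpha-like cells, marked by glucagon, were at 26.4 and 17.5 CPM, -0.59 (-0.84 to -0.35), with a UMI in 140 of 1053 (13.3%) and 81 of 676 cells (12.0%). Delta-like cells, marked by somatostatin, were at 7.35 and 28.8 CPM, 1.97 (1.5 to 2.46), with a UMI in 39 (8.25%) and 64 cells (17.5%). Beta-like cells were at 2.25 and 3.54 CPM, 0.65 (0.30 to 1.01), or -0.061 with each library clustered separately. The alpha-like share exceeded the beta-like share of 3.34% and 3.69%, although beta-like cells were deeper than alpha-like cells, whose medians were 16426 and 17535 UMIs. In endothelial-like cells 148 virgin and 31 multipara UMIs gave -2.34 (-2.95 to -1.77), and 1 virgin cell held 117 UMIs (79.1%). That value turned to 0.22 when no cell was filtered out, to 0.33 when each library was clustered on its own and to 3.18 at the finer clustering. In Schwann-like cells the 16 multipara UMIs lay in 1 cell, as did the 2 virgin ones. Fibroblast-like cells had 254 virgin UMIs and 0 in their 6 multipara cells.

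**Figure D4:**
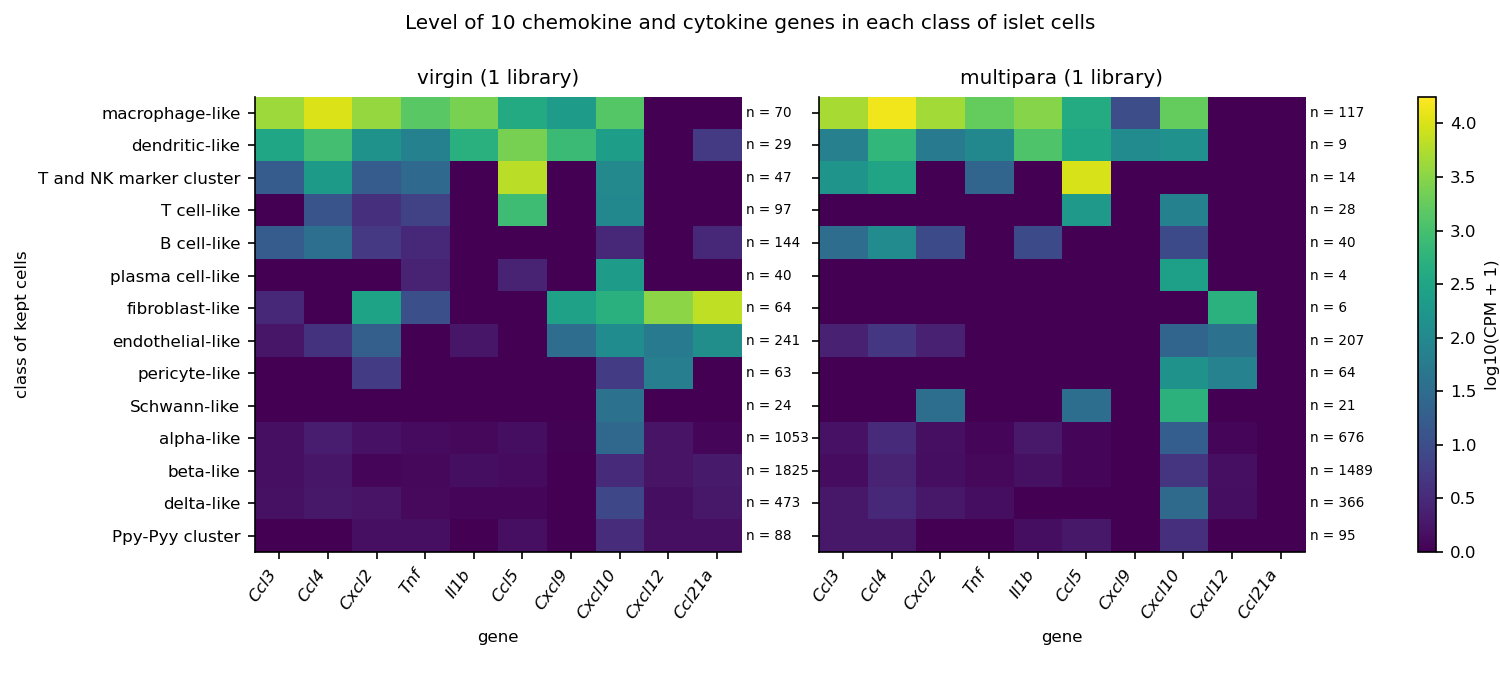
Level of each of the 10 genes (colour, log10 of CPM + 1) in each cell class of the virgin and the multipara library. The macrophage-like row is high for Ccl3, Ccl4, Cxcl2, Tnf and Il1b in both, and the fibroblast-like row is high for Cxcl12 and Ccl21a in the virgin library.

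By class, counts of 2-fold differences among the measured genes were read against all genes of the class. In dendritic-like cells 1 of 8 was higher (Il1b), against 9.57% of genes. Lower were 4 of 8 (Ccl3, Ccl5, Cxcl2 and Cxcl9), against 19.4%. The richest dendritic-like cell of each held 69.2% of the virgin UMIs of Ccl3, 24.9% of Ccl5, 50% of Cxcl2 and 46.0% of Cxcl9. For Il1b the richest of the 9 multipara cells held 42.0% of the multipara UMIs. In endothelial-like cells 0 of 5 were higher, against 2.27%, and 4 of 5 were lower (Cxcl2, Cxcl9, Cxcl10 and Ccl21a), against 3.87%. The richest endothelial-like cell of each gene held 78.0% of the virgin UMIs of Cxcl9, 79.1% of Cxcl10 and 98.1% of Ccl21a. Cxcl2 was found in 15 virgin and 2 multipara cells of this class. Of the lymphocyte groups, the T and NK marker cluster had 1 of 4 higher (Ccl3, against 8.55%) and 1 of 4 lower (Cxcl10, against 19.1%), T cell-like cells had 0 of 2 higher (against 7.2%) and 1 of 2 lower (Ccl5, against 16.4%), and B cell-like cells had 2 of 2 higher (Ccl3 and Ccl4, against 7.48%) and 0 of 2 lower (against 15.7%). These lymphocyte values of Ccl3 and Ccl4 rest on few UMIs, such as 17 virgin and 14 multipara UMIs of Ccl4 in B cell-like cells. In pericyte-like cells 1 of 2 was higher (Cxcl10, against 5.85%) and 0 of 2 lower (against 6.71%). A single multipara cell held 93.9% of the multipara Cxcl10 UMIs of that class. Of the endocrine classes, beta-like cells had 1 of 9 higher (Cxcl2, against 1.81%) and 1 of 9 lower (Ccl21a, against 4.54%), alpha-like cells 1 of 7 higher (Il1b, against 1.14%) and 2 of 7 lower (Ccl5 and Cxcl12, against 2.85%), and delta-like cells 2 of 2 higher (Ccl4 and Cxcl10, against 1.42%) and 0 of 2 lower (against 2.48%). The endocrine values of Cxcl2 in beta-like cells (10 and 21 UMIs), Il1b in alpha-like cells (4 and 11) and Ccl4 in delta-like cells (6 and 9) are likewise read as background, and Cxcl12 in alpha-like cells had 12 and 2 UMIs.

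Dendritic-like cells also held Il1b, at 507 CPM (119 UMIs) in the virgin and 1218 CPM (88 UMIs) in the multipara library, a log2 ratio of 1.27 (0.85 to 1.67), with a UMI in 19 of 29 and 6 of 9 cells. Ccl3 moved the other way there, with 78 and 5 UMIs, and Ccl4 had 222 and 47. The richest virgin cell of each held 69.2% of the virgin Ccl3 UMIs and 63.1% of those of Ccl4. With 9 multipara cells these levels describe those cells.

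Cxcl12, a stromal chemokine that retains lymphocytes and progenitors, and Ccl21a, a chemokine of lymph node stroma and lymphatic vessels, came in the virgin library from 1 small cluster. Fibroblast-like cells numbered 64 virgin (1.48%) and 6 multipara (0.180%), and 20 of the 64 formed a cluster found in the virgin library alone, with Ccl21a and C3 as its leading genes. It held 7 of the fibroblast markers among its 50 leading genes and none among the first 10. These 20 cells held 3496 of the 3722 Ccl21a UMIs (93.9%), in 17 cells with a median of 94 and a highest cell of 855, and 1511 Cxcl12 UMIs (85.1%), in all 20 cells with a median of 66. They also held 135 Cxcl9 UMIs (27.3% of the virgin total) and 215 of Cxcl10 (11.3%). Of the lymph node stroma list, they contained 112 UMIs of Ccl19 (80.0%), the other Ccr7 ligand, 18 of Cxcl13, 43 of Bst1, 15 of Il7 and 19 of Pdpn, while Madcam1 and Cr2 were at 0. The complement gene C3 (2158 UMIs, 82.1%) and the chemokines Cxcl1 (1630, 80.3%), Ccl2 (841, 74.0%) and Ccl7 (296, 82.7%) came largely from the same cells. Lymphocyte classes were larger in the virgin library too: B cell-like cells were 3.33% and 1.20% of kept cells and plasma cell-like cells 0.924% and 0.120%. The part of these classes in the result was not tested.

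Outside that cluster, 4 endothelial-like virgin cells held 158 Ccl21a UMIs. A single one of them held 155 and contained all 5 lymphatic endothelial markers, Prox1, Lyve1, Mmrn1, Flt4 and Reln. A further 24 of 1825 virgin beta-like cells (1.32%) had a UMI, the richest with 31. No Ccl21a UMI was found in any of the 5075 multipara barcodes, kept or not. With the floor of 3 in place of 0, the share of the 3330 kept cells with a UMI would be 0.0901%. That value is the floor, not an exact interval limit. It sets no limit on cells that express the gene below detection. All UMIs were on the chromosome 4 identifier, and the second identifier, on an unplaced scaffold, had 0. Of the 25-base stretches of the Ccl21a transcript, 38.8% also occur in Ccl21b, so the split between these near-identical genes is uncertain. The rows of Ccl21b had 0 UMIs in the kept cells of both libraries, and those of Ccl21c had 1 virgin and 0 multipara UMIs.

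Outside fibroblast-like cells Cxcl12 counts were low. Endothelial-like cells were at 52.4 and 38.2 CPM (66 and 51 UMIs), a log2 ratio of -0.46 (-1.01 to 0.09), and pericyte-like cells at 65.8 and 76.8 CPM, 0.22 (-0.88 to 1.36). Both values moved with the grouping of cells, to as low as -3.32 in endothelial-like cells with each library clustered separately and to -2.19 in pericyte-like cells with marker gates. Endothelial-like cells gave 3.72% of the virgin and 44.3% of the multipara Cxcl12 UMIs. With the 20 cells left out, the Cxcl12 ratio over all cells was -0.93 in place of -3.68 and that of Cxcl9 was -4.42 in place of -4.88. For Ccl21a the value with the floor was then -5.97 in place of -10.01. In fibroblast-like cells 5 of 5 measured genes were 2-fold or more lower, against 39% of all genes in a class with 6 multipara cells.

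The receptors were read in the same classes. Il1r1, which receives Il1b, was carried by beta-like cells, at 118 CPM (6101 UMIs) in the virgin and 78.7 CPM (3671 UMIs) in the multipara library, a log2 ratio of -0.59 (-0.65 to -0.53), with a UMI in 1551 of 1825 (85.0%) and 1145 of 1489 cells (76.9%). With both libraries summed, its level was highest in fibroblast-like cells, at 139 CPM, with beta-like cells second at 99.5 CPM. Alpha-like cells were at -0.29 (-0.43 to -0.16) and delta-like cells at -0.34 (-0.60 to -0.09), so the receptor was lower in all 3 endocrine classes, where the all-gene medians were -0.11, -0.10 and -0.02 for beta-like, alpha-like and delta-like cells. Tnfrsf1a, a Tnf receptor, was higher, at 0.31 (0.21 to 0.42) over all cells and 0.41 (0.27 to 0.56) in beta-like cells.

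Ccr7, the receptor of Ccl21a and Ccl19, was lower over all cells (506 and 246 UMIs, -0.77, -1.0 to -0.55), but within dendritic-like cells it was at 319 and 1204 CPM, 1.91 (1.45 to 2.38), with a UMI in 11 of 29 and 7 of 9 cells. The decoy receptor Il1r2 moved with it there, at 170 and 636 CPM, 1.90 (1.26 to 2.55). The richest multipara dendritic-like cell of each held 42.5% of the multipara Ccr7 UMIs of the class and 41.3% of those of Il1r2. Cxcr3 had 88 and 41 UMIs in all, -0.83 (-1.40 to -0.28), and in the T and NK marker cluster it was at 143 and 297 CPM, 1.06 (-0.02 to 2.07). Of the Cxcl12 receptors, Cxcr4 was level over all cells, 0.00 (-0.23 to 0.24), and higher in endothelial-like cells, 0.72 (0.28 to 1.16), and Ackr3 had its highest level in pericyte-like cells (258 and 262 CPM, 55 and 58 UMIs), with more UMIs in endothelial-like cells (198 and 184). Cxcr2, which receives Cxcl2, had 6 UMIs in each library, close to the floor of 3 counts. The other receptors were sparse: Ccr1 had 29 and 34 UMIs, Ackr1 54 and 23, Ackr2 11 and 9, Ackr4 4 and 1, Tnfrsf1b 86 and 64, and Il1rap 123 and 121.

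**Figure D5:**
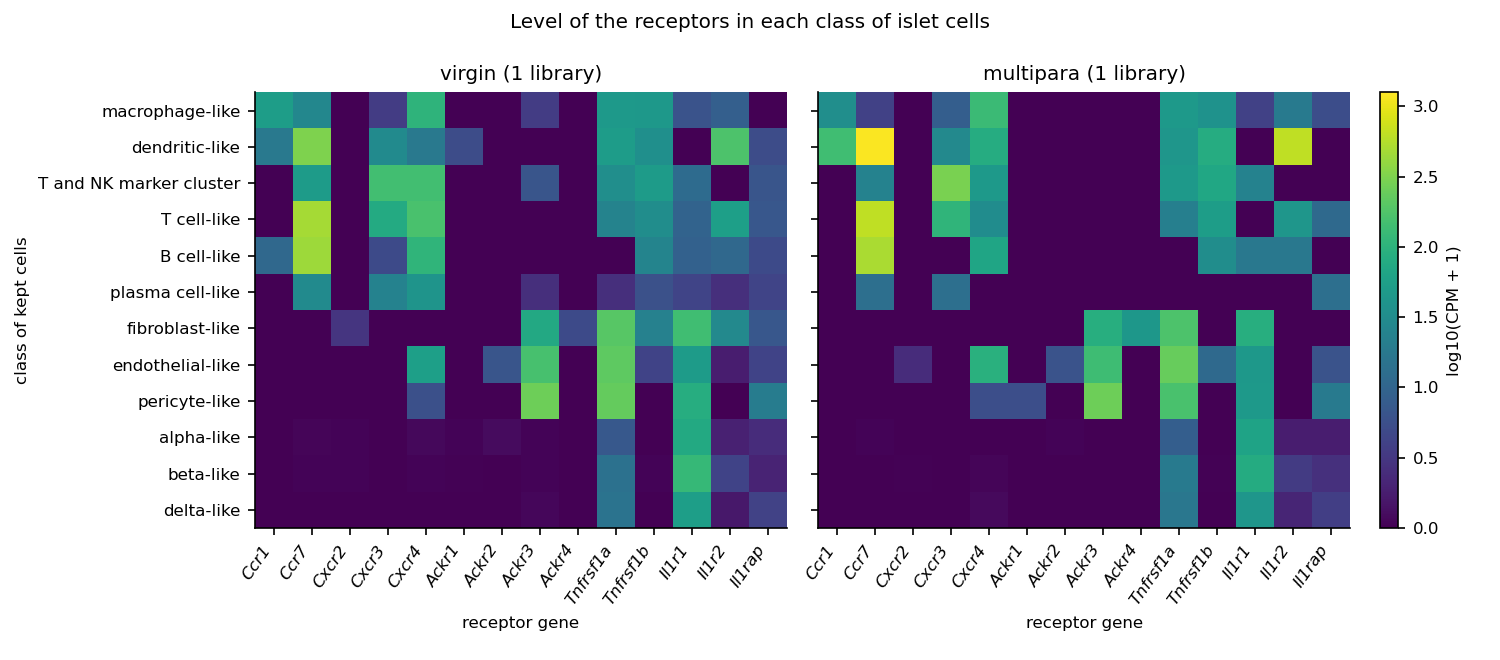
Level of 14 receptors of the 10 genes (colour, log10 of CPM + 1) by cell class in each library. Il1r1 is high in the beta-like row, Ccr7 in the T cell-like, B cell-like and dendritic-like rows, and Ackr3 in the pericyte-like row.

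Lists of other inflammatory genes were read in macrophage-like cells beside the all-gene median. Of the NF-kB target list 16 of 16 genes had at least 10 UMIs, 5 higher and 11 lower, with a median log2 ratio of -0.18 against -0.18 for all genes. Nfkbia, the inhibitor that NF-kB induces, had 979 and 1692 UMIs (-0.01), Ccrl2 374 and 827 (0.35), and Nfkbiz 431 and 642 (-0.22). The dissociation-response list had 26 of 26 genes, 14 higher and 12 lower, with a median of 0.05, and its most abundant genes were Junb (0.20), Atf3 (0.18) and Hspa8 (0.12). Of the interferon-response list 18 of 19 genes were measured, 6 higher and 12 lower, with a median of -0.15. Of the 18, 1 was 2-fold or more higher and 6 were 2-fold or more lower, against 4.85% and 11.4% of all genes in the class. Isg15 was at -0.02 and Rsad2 at -0.07. Among other cytokines 11 of 21 were measured, 2 higher and 9 lower, with a median of -0.44. The higher ones were Il1a (0.11) and Ifnb1, the beta interferon gene, at 236 CPM (91 UMIs) in 14 of 70 virgin cells and 400.5 CPM (269 UMIs) in 32 of 117 multipara cells, 0.77 (0.42 to 1.13). Among other chemokines 10 of 29 were measured, 5 higher and 5 lower, with a median of 0.12. Cxcl16 was at 678 and 841 CPM (0.31), Ccl12 at -0.21 and Ccl2 at -0.77. TMM scaling turned the medians of the NF-kB and interferon lists to 0.068 and 0.10 and kept the sign of the medians of the dissociation list (0.30), other chemokines (0.37) and other cytokines (-0.19). Ccl8, named after its values were seen, had 133 virgin UMIs, 72.9% of them in 1 cell, and 0 multipara UMIs.

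The genes most like each of the 10 were ranked by Pearson correlation of log2(CPM + 10) over 33 sums of a class in a library, across 14245 genes. These sums come from 2 libraries, differ in depth, and are given as a description. Ccl3 was closest to Ccl4 (0.97), Tnf (0.95) and Lilr4b (0.95), and Ccl4 to Ccl3 (0.97), Lilr4b (0.94) and Tyrobp (0.94). Cxcl2 was closest to H2-M2 (0.95), Ifi207 (0.94) and Tmem119 (0.93). Tnf was closest to Ms4a6d (0.97), Nlrp3 (0.96) and Cd300ld (0.96), and Il1b to Ppfia4 (0.96), Nlrp3 (0.96) and Cd300c2 (0.95), where Nlrp3 is an inflammasome sensor. Ccl5 was closest to the chemokine receptor Ccr2 (0.90), Fyb (0.90) and Arl4c (0.90). Cxcl9 was closest to Slamf8 (0.88), Olfr920 (0.86) and Ptgs2 (0.85). Cxcl10 had the lowest values of the 10, with Nfkbia (0.78), Cxcl2 (0.77) and Slc29a3 (0.77). Cxcl12 was closest to Gdf10 (0.97), Fbn1 (0.94) and Acy3 (0.93), and Ccl21a to Lrg1 (0.99), 3300002I08Rik (0.96) and Gfpt2 (0.95).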

How the data were processed

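Islet cells of 1 virgin and 1 multipara library were profiled with Chromium 3′ v3.1 chemistry. The authors deposited unnormalised UMI counts per gene and cell, made with Cell Ranger 3.1.0 on GRCm38 (mm10) and analysed by them in Seurat 3.0, per the labels and the submitters' processing notes. Cells with over 200 and under 6000 genes, under 60000 UMIs and under 10% mitochondrial UMIs were kept. Scrublet (scanpy 1.11.5) marked 61 virgin and 44 multipara doublets, which were removed. Leiden clusters (leidenalg 0.10.2) were built without the 10 genes and named from at least 3 markers among their 50 leading genes, and 6 of the 30 stayed unnamed. UMIs were summed per class and library and divided by the class total (CPM). Ratios were formed for genes with at least 10 UMIs over both libraries. Exact Poisson, Clopper-Pearson and conditional binomial intervals (scipy 1.17.1) were computed, and 0 counts were set to a floor of 3 counts. Simulated Poisson counts with known folds were recovered, with the true fold inside the interval for 92% to 98% of genes at each fold. The draws follow the counting model of the intervals. They check the calculation only and say nothing on the spread between cells or mice. The text names all 10 genes, their receptors (some genes are not reported here), the 3 genes most like each, and, from the other lists, the most abundant genes of a class. The 10 genes and all lists were chosen with earlier results of these data known. Alternatives covered cell filter, doublets, clustering, gates, scaling (edgeR 4.0.16 TMM), thinning and low counts.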

Additional observations from a re-analysis of the deposited data

Results flagged for a closer look

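For 5 of the genes, cell classes moved in opposite directions between the libraries. Each class is 1 library per arm, so these differences between classes were not tested. Ccl3 was higher in the multipara T and NK marker cluster, with a log2 ratio of 3.28 from 3 virgin and 7 multipara UMIs. A single multipara cell held 6 of the 7. The gene was lower in dendritic-like cells, -2.26 from 78 and 5 UMIs, with 54 of the virgin UMIs in 1 cell. Ccl4 was higher in B cell-like cells, 1.73 from 17 and 14 UMIs, and lower in dendritic-like cells, -0.539 from 222 and 47 UMIs. Of the 222 virgin UMIs, 63.1% lay in 1 cell, so this direction leans on that cell. Ccl5 was higher in the T and NK marker cluster, 0.618 from 1160 and 427 UMIs, and lower in dendritic-like cells, -2.92 from 567 and 23 UMIs. Cxcl2 was higher in beta-like cells, 1.22 from 10 and 21 UMIs that are read as background, and lower in endothelial-like cells, -3.61 from 23 and 2 UMIs. Cxcl10 was higher in pericyte-like cells, 4.99 from 1 and 33 UMIs, with 31 of the multipara UMIs in 1 cell, and lower in endothelial-like cells, -2.34, where 1 virgin cell held 79.1% of the UMIs.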

How the results depend on the processing

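Over 650 recomputed values, 508 stayed within the interval of the main value, 126 moved outside it and 16 reversed. For gene lists the interval was the quartiles of the genes, and for counts a fixed margin. A reversal was counted only where the main interval left out 0. Other changes of sign fell among the 508 or the 126. The count of genes 2-fold or more higher over all cells was 5 under each of its 9 alternatives, and the count lower was 3 to 4. The median log2 ratio of Ccl3, Ccl4, Cxcl2, Tnf and Il1b in macrophage-like cells was 0.28, and 0.028 without the cell filter, 0.035 at the finer clustering and 0.53 with TMM scaling. The macrophage-like share of 1.62% and 3.51% was 1.19% and 2.58% without the cell filter, and 1.25% and 2.61% without the macrophage-like cluster of few UMIs, an alternative chosen after seeing the data, as was leaving out the Ccl21a-rich cluster. Without the cell filter, macrophage-like Ccl3 was at -0.058, Tnf at -0.023 and Cxcl9 at 0.21, and endothelial-like Cxcl10 at 0.22. At the finer clustering the same were -0.056, -0.0095, 0.24 and 3.18, and the 15 cells that left the macrophage-like class account for the first 3. With each library clustered separately, Ccl5 in T and NK cells was -0.27, Cxcl10 in beta-like cells -0.061 and in endothelial-like cells 0.33. With marker gates in place of clusters, Ccl5 was -0.086 in T and NK cells and 1.31 in dendritic-like cells. The median of other cytokines in dendritic-like cells was -0.023 with TMM and -0.62 with no minimum on UMIs, which took the interferon list in B cell-like cells to -0.24. The cause of the other reversals was not tested. No paired analysis was possible because each arm was 1 library, and for the same reason no replicate could be left out. Cxcl9 in the multipara library rests on 14 UMIs, and depth limits every value there.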
